A study of Homo sapiens with 2 samples.

Results

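The genes described here encode the proteins of the cytosolic ribosome. They were chosen by gene symbol, as the RPL, RPS, RPLP and RPSA genes of the deposited table with the paralogs RPL7L1, RPL22L1 and RPS27L. The rule itself uses no measured value, but it was chosen with earlier results of these data known. The rule took 83 of 50868 genes, 51 of the large and 32 of the small subunit. FAU, RPL26L1 and RPL36AL also encode ribosomal proteins or paralogs of them but have symbols that the rule does not match, and they are described separately.

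RNA sequencing after mRNA separation was carried out on 2 cultures labelled HepG2, a human liver cancer cell line. The parental culture (labelled wild type) received no treatment. The resistant culture was selected in sorafenib, a kinase inhibitor used against liver cancer, with a first dose of 2.5 µM, increments of 0.5 µM and a last dose of 7 µM. There was 1 library for each group, and the labels do not say whether the selected cells were a clone or a pool. No test of the conditions was therefore possible, no p-value is given, and every 95% interval covers counting error only.

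A cytosolic ribosome holds 1 copy of nearly every ribosomal protein, except for the acidic stalk proteins, which are present in several copies. Their mRNAs are among the most abundant of a growing cell. Most begin with a cytosine followed by a run of pyrimidines, the 5′ terminal oligopyrimidine (TOP) tract, through which mTOR and the binding protein LARP1 control translation. Many of these genes have processed pseudogenes, copies of the mRNA inserted elsewhere in the genome, which compete with the gene for short reads.

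The libraries held 18067146 parental and 16811907 resistant counts. Levels are given as CPM, the counts relative to library depth after TMM scaling, a trimmed mean that corrects for differences in composition. Of 11 hepatocyte marker genes, 10 had 0 counts in both libraries and the list summed to 2 counts in each, which goes against what is known of HepG2. Parental and resistant therefore stand for the libraries so labelled. Mitochondrial genes took 7.37% of parental and 6.91% of resistant counts. Markers of fibroblasts summed to 369 CPM (parental) and 369.6 CPM (resistant), with COL1A2 and PDGFRA at 0 counts. Endothelial markers summed to 33 and 79 counts, all 3 above 0 in at least 1 library, and leukocyte markers to 0. The part of these differences in the ratios below was not tested.

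Start sites were read from RefSeq promoter windows (GRCh38.p14), which matched 66 of the 83 genes by symbol. A TOP-like tract, here a C within 5 bases of the annotated start followed by at least 4 pyrimidines, was found in 54 of the 66 (81.8%), against 6886 of 27305 genes (25.2%) in the same table. The sequences below run from 10 bases before the start and are 30 bases long, in the direction of transcription, with the tract in capitals. The first 5 belong to genes that differed most between the libraries, or to a partner of one (RPLP2), and have a tract.
RPS19, chr19:41860245-41860274, plus strand: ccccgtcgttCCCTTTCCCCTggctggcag
RPS24, chr10:78033853-78033882, plus strand: aatcgtggttCTCTTTTCCTCCTTggctgt
RPS13, chr11:17077648-17077677, minus strand: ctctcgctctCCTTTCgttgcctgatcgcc
RPLP1, chr15:69452808-69452837, plus strand: ggcgcgagagCCCCTTTCCTCagctgccgc
RPLP2, chr11:809957-809986, plus strand: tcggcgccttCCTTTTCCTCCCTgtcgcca

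The following 4 genes also lay near the ends of the range but had no such tract at the annotated start, and so are all in lower case.
RPL7L1, chr6:42879606-42879635, plus strand: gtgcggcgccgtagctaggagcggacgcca
RPL9, chr4:39458903-39458932, minus strand: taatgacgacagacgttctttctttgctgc
RPS26, chr12:56041908-56041937, plus strand: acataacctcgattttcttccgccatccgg
RPS27L, chr15:63157458-63157487, minus strand: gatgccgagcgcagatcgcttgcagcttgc

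RPS19 has a further annotated start on the same strand, and its upstream start is shown. The tract was 11 bases long in both RPS19 and RPLP1, the genes of the list that were furthest below and among the furthest above the parental level. The other genes without a tract were RPL10L, RPL15, RPL17, RPL27, RPL6, RPS15, RPS29 and RPS4X. No match says only that these letters are not at that annotated start.

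The first comparison asked whether the ribosomal protein genes differed as a group between cells selected in sorafenib and the parental cells. They took 2.96% of all parental counts (95% Wilson interval 2.95 to 2.97) and 3.01% of all resistant counts (2.997 to 3.01). Large subunit genes made up 1.75% of parental and 1.78% of resistant counts, and small subunit genes 1.21% and 1.23%. Within the counts of these genes the large subunit held 59.1% of the parental and 59.2% of the resistant counts. The intervals of the large subunit's share, 58.9 to 59.2 and 59.1 to 59.4, overlapped.

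Of the 83 genes, 81 were measured, meaning that the larger of the 2 CPM values was at least 1. The log2 ratio of resistant over parental CPM, each with 1 added, had a median of 0.035 over the 81 genes, with 54 ratios above 0 and 27 below (50 and 31 with DESeq2 size factors). The median was 0.048 over the 49 large subunit genes and 0.033 over the 32 small subunit genes. Over all 14686 measured genes it was -0.0018. The middle 50% of the ribosomal protein genes lay between -0.03 and 0.11, a span of 0.141. For the 2408 genes with a mean of at least 100 CPM the median was -0.0048 and the span 0.201.

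Most of the group is abundant, and 70 of the 2408 genes with a mean of at least 100 CPM were ribosomal protein genes. Of these 70, 47 had a ratio above 0, as had 1132 of the 2338 other abundant genes. Within 0.1 of 0 on the log2 scale lay 47 of the 81 measured ribosomal protein genes (58.0%) and 49.8% of all abundant genes.

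**Figure D1:**
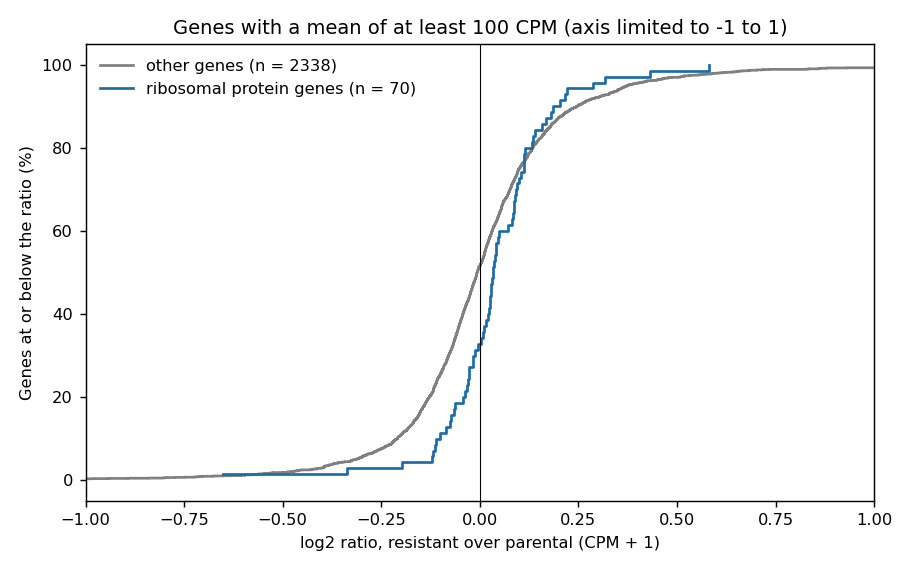
Cumulative share of genes (y axis, percent) at or below each log2 ratio of resistant over parental CPM plus 1 (x axis), for the 70 ribosomal protein genes and the 2338 other genes with a mean of at least 100 CPM. The axis stops at -1 and 1. The curve of the ribosomal protein genes is steeper and crosses the line at 0 lower, with medians of 0.03 and -0.0069.

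By a 2-fold rule, under which the log2 ratio has to reach 1 or -1, 1 ribosomal protein gene was higher in the resistant library, RPS28, where 1.31% of all measured genes were. None was lower, where 0.994% of all measured genes were. A smaller rule of 1.2-fold was also applied because counting error is small for most of these genes. By it 7 were higher (RPL39L, RPL7L1, RPL9, RPLP1, RPS13, RPS24 and RPS28), or 8.64%, against 15.9% of all measured genes. RPS19, RPS2 and RPS26 were lower, or 3.70%, against 14.6%. Among genes with a mean of at least 100 CPM, 4 of 70 ribosomal protein genes were higher (5.71%), against 9.05% of all such genes. There 2 of 70 were lower (2.86%), against 6.89%. The other 71 measured genes were within 1.2-fold.

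**Figure D2:**
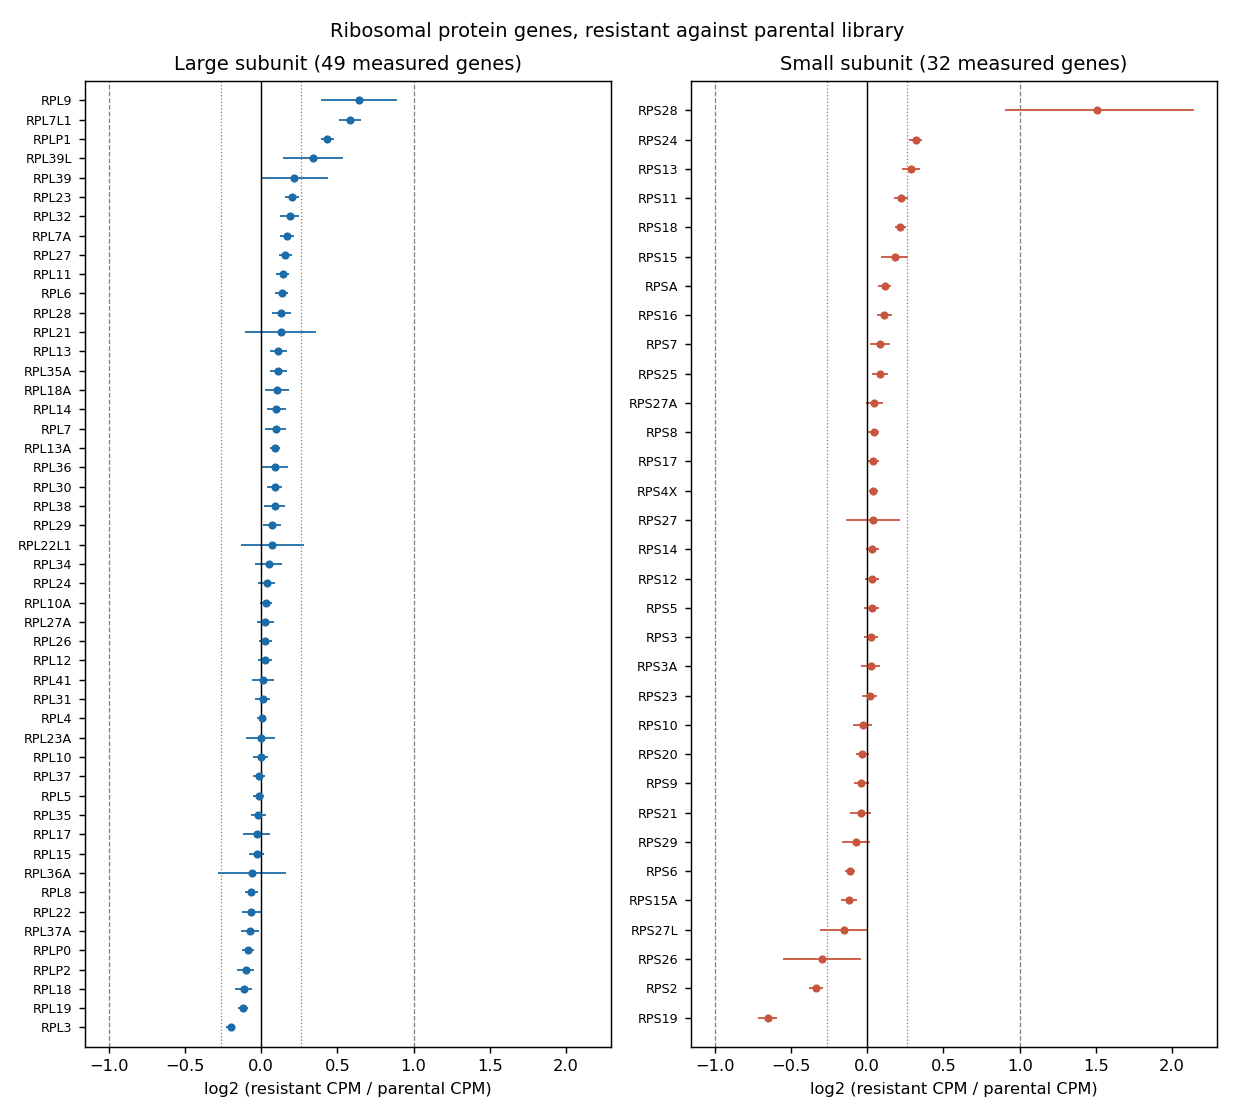
Log2 ratio of resistant over parental CPM without a pseudocount (x axis) for each measured gene of the large subunit (left, 49 genes) and the small subunit (right, 32 genes), with the exact 95% interval of the count ratio as a horizontal bar. Dotted lines mark 1.2-fold and dashed lines 2-fold, and most points lie between the dotted lines, with RPS19 lowest and RPS28 highest.

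RPS19 (ENSG00000105372; chromosome 19, 41859918 to 41872926, plus strand, GRCh38) was the ribosomal protein gene furthest below the parental level. It encodes a small subunit protein needed to mature the small subunit rRNA, and is the gene most often mutated in Diamond-Blackfan anaemia. It had 6190 parental and 3639 resistant counts, or 342 and 217 CPM. The resistant level was 0.635-fold the parental one (95% interval 0.610 to 0.662), a log2 ratio of -0.65. Its annotated pseudogenes had 3 counts in each library, and no overlapping gene reached 5% of its counts. Its share of all ribosomal protein counts was 1.16% in the parental library (1.13 to 1.19), and 0.720% in the resistant one (0.697 to 0.744).

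The genes linked to Diamond-Blackfan anaemia, an inherited failure of red cell production, had ratios on both sides of 0. Over the list of 18 genes, RPS19 included, the median log2 ratio was 0.02, with 10 above 0 and 8 below. By the 1.2-fold rule 2 were higher (RPS24 and RPS28) and 2 lower (RPS19 and RPS26), where 15.9% of all measured genes were higher and 14.6% lower. With pseudogene counts added, as described below, RPS28 and RPS26 were within 1.2-fold, but pseudogenes held 98.0% and 88.3% of these sums. RPS24, which encodes another small subunit protein of the list, had 8157 parental and 9403 resistant counts (1.25-fold, 1.21 to 1.28). It was thus above the parental level by more than counting error, whereas RPS19 was below it.

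RPS13, which was named after its value was seen, encodes a protein at the bridge between the subunits. It had 4201 parental and 4744 resistant counts (1.22-fold, 1.17 to 1.27). PIK3C2A overlaps it on the same strand and had 3152 parental and 2926 resistant counts. RPS15A, a small subunit protein gene, had 6581 and 5598 counts, and its log2 ratio was -0.12.

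RPS6, whose protein is the classical substrate of the S6 kinases downstream of mTOR, had 17002 parental and 14562 resistant counts. It stood at 938 and 869 CPM, 0.926-fold (0.906 to 0.947), within the 1.2-fold rule. The count of RPS19 per count of RPS6 was 0.364 (parental) and 0.250 (resistant), a ratio of 0.686 (0.655 to 0.719). RPS27A, which is made as a fusion of ubiquitin and a small subunit protein, had 5316 and 5074 counts and a log2 ratio of 0.04. With its pseudogenes, which hold 54.8% of the sum, that ratio was -0.0015.

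The acidic stalk recruits and activates the translation factors that bind GTP. It consists of the base protein RPLP0 and dimers of RPLP1 and RPLP2. RPLP1 (ENSG00000137818; chromosome 15, 69452784 to 69456194, plus strand) had 7629 parental and 9530 resistant counts, or 421 and 569 CPM, and was at 1.35-fold (1.31 to 1.39). RPLP2, its partner in the dimer, had 5547 and 4782 counts and was at 0.932-fold (0.896 to 0.969). RPLP0 had 12470 and 10863 counts and was at 0.942-fold (0.918 to 0.966). RPLP1 was thus on the other side of the parental level from both partners. Counts of RPLP1 per count of RPLP2 went from 1.38 to 1.99, a ratio of 1.45 between the libraries (1.38 to 1.52). These count ratios are not corrected for length, so only the difference between the libraries can be read from them. Pseudogenes held 39.99% of the sum for RPLP0, and with them its log2 ratio was -0.04 in place of -0.09.

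RPL5 and RPL11 bind the 5S rRNA, and the particle can hold back the ubiquitin ligase MDM2 when ribosome assembly is disturbed. RPL5 had 13763 parental and 12589 resistant counts (0.989-fold, 0.965 to 1.01). RPL11 had 8621 and 8792 counts (1.10-fold, 1.07 to 1.14). Both lay within the 1.2-fold rule, and RPL5 counts per RPL11 count were 1.60 (parental) and 1.43 (resistant).

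RPL3 encodes a core protein close to the peptidyl transferase centre. It had the lowest log2 ratio of the measured large subunit genes, with 20210 parental and 16290 resistant counts (0.871-fold, 0.853 to 0.890). Its pseudogenes held 13.8% of the sum, and the log2 ratio was -0.20 without and -0.18 with them.

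Several ribosomal protein genes have a paralog of their own, and in these libraries the paralogs were unequal in level and in ratio. RPL7L1 (ENSG00000146223; chromosome 6, 42879618 to 42889925, plus strand) encodes a relative of RPL7 that works in the assembly of the large subunit rather than in the finished ribosome. It had 2801 parental and 3882 resistant counts, or 155 and 232 CPM, and was at 1.50-fold (1.43 to 1.57). RPL7 itself had 3750 and 3703 counts and a log2 ratio of 0.09. RDH10 overlaps RPL7 on the opposite strand with 2305 parental and 2280 resistant counts, and use of strand in the counting is not stated. RPL7L1 counts per RPL7 count were 0.747 and 1.05, a ratio of 1.40 between the libraries (1.31 to 1.50). Pseudogenes held 86.7% of the sum for RPL7. With them added to RPL7, the RPL7L1 count per RPL7 count was 0.0972 (parental) and 0.142 (resistant). RPL7L1 thus stood higher against its parent gene in the resistant library by both counts, while only 0.9% of its own sum came from pseudogenes.

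RPL39L, a paralog of the exit tunnel protein RPL39 best known from testis, had 402 parental and 470 resistant counts (1.26-fold, 1.10 to 1.45). RPL39 had 328 and 353 counts (1.16-fold, 0.998 to 1.36). Their count ratio was 1.23 (parental) and 1.33 (resistant), a ratio of 1.09 whose interval (0.884 to 1.33) includes 1. A difference between this paralog and its parent gene was not detectable at this depth.

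RPL22L1, the paralog that can take the place of RPL22, had 397 parental and 386 resistant counts and a log2 ratio of 0.07. RPL22 had 4372 and 3865 counts and a log2 ratio of -0.07. RPL22L1 counts per RPL22 count were 0.0908 and 0.0999, a ratio of 1.10 with an interval of 0.947 to 1.28, which also includes 1. RPS27L, a paralog of RPS27, had 768 and 639 counts (0.899-fold, 0.809 to 1.0002), and RPS27 had 542 and 514 (1.02-fold, 0.907 to 1.16). The ratio of RPS27L to RPS27 differed by 0.877-fold between the libraries (0.745 to 1.03). LACTB overlaps RPS27L on the opposite strand with 642 and 619 counts, and the sources used here do not state whether the counting used strand.

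RPL3L and RPL10L were not measured. RPL3L, the paralog of RPL3 in heart and skeletal muscle, had 1 parental and 0 resistant counts. RPL10L, the retrocopy of RPL10 known from testis, had 0 counts in both, which allows up to 3 counts, or 0.166 CPM (parental) and 0.179 CPM (resistant). Its parent gene RPL10 had 6964 and 6423 counts and a log2 ratio of -0.0043.

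RPS28, RPL9, RPS2 and RPS26 need to be read together with their pseudogenes. RPS28 encodes a small subunit protein at the mRNA exit. The gene had 32 parental and 84 resistant counts and was at 2.84-fold (1.87 to 4.41). Its annotated pseudogenes had 3014 parental and 2804 resistant counts, 98.0% of the summed counts with RPS28, nearly all of them in RPS28P7. The log2 ratio was 1.12 for RPS28 alone and 0.035 for the sum. At that share the sum mostly follows the pseudogenes, so it cannot show whether RPS28 itself differed. Genes that overlap RPS28 on the opposite strand include ELAVL1 (2245 parental and 1725 resistant counts), NDUFA7 (416 and 407) and AC010323.1 (123 and 64). Use of strand in the counting is not stated, and the part of these genes in the RPS28 counts was not tested. In the authors' deposited table, also from 1 library per group, RPS28 had a log2 fold change of 1.50 and RPS19 one of -0.66.

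RPS2, a protein gene of the mRNA entry channel, had 8784 parental and 6432 resistant counts (0.792-fold, 0.766 to 0.817). Pseudogenes held 75.5% of its sum, of which RPS2P5 alone had 17039 parental and 17105 resistant counts. The log2 ratio was -0.34 for RPS2 alone and 0.0029 for the sum. RPS26, a protein gene of the mRNA exit channel, had 296 and 223 counts (0.814-fold, 0.681 to 0.972), with 88.3% of the sum in pseudogenes. Its log2 ratio of -0.28 became -0.0049 in the sum. For RPS2 and RPS26 too, most of the sum is pseudogene counts, and it cannot show whether the gene itself differed. RPL9, a large subunit gene, had 229 and 330 counts (1.56-fold, 1.31 to 1.85). Pseudogenes held 37.0% of the RPL9 sum, and its log2 ratio was 0.60 alone and 0.37 with them.

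Annotated pseudogenes of ribosomal protein genes as a whole took 1.12% of parental and 1.13% of resistant counts, 27.5% and 27.4% of the counts summed over genes and pseudogenes. For 14 of the 81 measured genes they held over 50% of the sum, which then cannot show whether the gene itself differed. With the pseudogenes added to each gene the median log2 ratio was 0.033, against 0.035 without them, and the middle 50% spanned 0.0974 in place of 0.141. None was then past the 2-fold rule. By the 1.2-fold rule 6 were higher, RPL39L, RPL7L1, RPL9, RPLP1, RPS13 and RPS24, and RPS19 was the 1 lower. All 7 were also past the rule without pseudogenes. Of all measured genes, each counted alone, 15.9% were higher and 14.6% lower by this rule. RPS19, RPLP1, RPL7L1 and RPS24 had under 5% of their sum in pseudogenes.

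**Figure D3:**
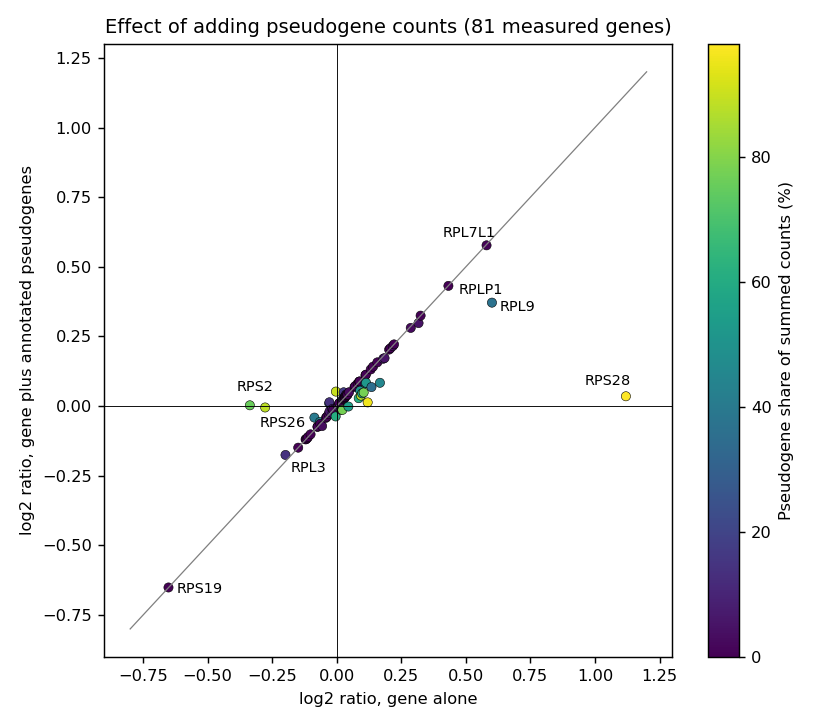
Log2 ratio of resistant over parental CPM plus 1 for each of the 81 measured genes alone (x axis) and after the counts of its annotated pseudogenes were added (y axis), coloured by the share of the sum that pseudogenes held (percent). RPS28, RPS2 and RPS26 move to near 0 on the y axis, while RPS19, RPLP1 and RPL7L1 stay on the grey line of equal values.

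Levels between genes were compared only per length, as the FPKM that the authors deposited. RPS12, a small subunit gene, stood highest at 473 FPKM (parental) and 480.4 FPKM (resistant). In the parental library it was followed by RPS6 at 247, RPS4X, the X-linked small subunit gene, at 246 and RPL10A at 235 FPKM. In the resistant library these 3 stood at 227, 251 and 239 FPKM, so their order was not the same, and neighbours in it differed by little. The lowest measured genes in the parental library were RPS28 at 0.448, RPL9 at 2.15, RPL36A at 3.45 and RPS27L at 3.51 FPKM. In the resistant library these were at 1.26, 3.33, 3.29 and 3.14 FPKM. These values are for the genes alone, and pseudogenes held 98.0% of the summed counts for RPS28 and 37.0% for RPL9. RPL36A had 356 parental and 316 resistant counts, and RPL36A-HNRNPH2, which overlaps it on the same strand, had 189 and 154. Rank by FPKM was nearly the same in both libraries, with a Spearman correlation of 0.992 over the 81 genes, which share each library and each gene's length.

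Against the median ribosomal protein gene of its library, RPS19 stood at 1.24 times that FPKM (parental) and 0.809 times (resistant). RPLP1 stood at 1.71 and 2.38 times, RPS24 at 1.22 and 1.56 times and RPL7L1 at 0.199 and 0.306 times. The median gene had 56.9 FPKM (parental) and 55.05 FPKM (resistant). These measures do not depend on how the libraries were scaled, and they have the same direction as the log2 ratios above. The gene lengths implied by the deposited FPKM had a median of 5312 bases. The shortest annotated mRNAs that hold the principal coding sequence of each gene had a median of 709. Over the latter, RPS12 ranked 15 and RPS6 20, so the order of levels depends on the length used.

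**Figure D4:**
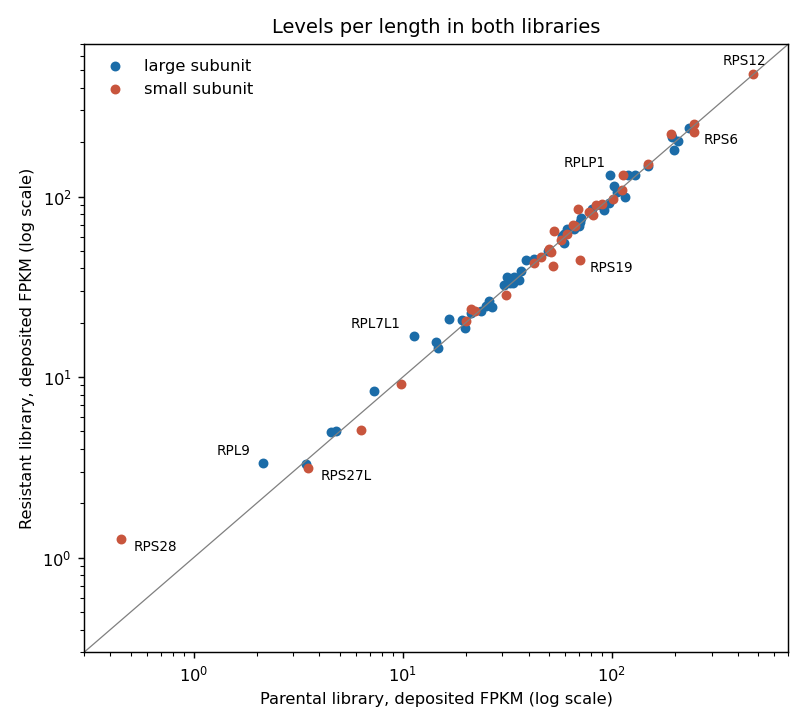
Deposited FPKM of the 81 measured genes in the parental (x axis) and resistant library (y axis), both on log scales, with the line of equal values. Points lie close to the line from RPS28 at the bottom to RPS12 at the top, with RPS19 below it and RPLP1, RPL7L1, RPL9 and RPS28 above it.

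Ribosomal protein genes that carry small nucleolar RNAs, guides of rRNA modification, in their introns had a median log2 ratio of 0.03 (28 genes), and the 53 measured genes without one had 0.04. Genes with the TOP-like tract had a median of 0.03 (54 measured genes) and those without it 0.04 (11 genes). The motif CCGGAAG, searched on both strands of the 300-base windows from 250 bases before to 50 after the start, was found in 24 of 66 genes (36.4%) and in 12.2% of all genes. TATAAA was in 7 (10.6%) against 14.0%, and AAGATGGCG in 6 (9.09%) against 2.14%. The genes lie on 21 chromosomes, 12 of them on chromosome 19, among them both RPS19 and RPS28.

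The other genes of the pathway were described by lists. Among the ribosomal protein genes that the rule does not match, RPL26L1, a paralog of RPL26, was past the 1.2-fold rule with 37.03 parental and 48.6 resistant CPM (1.31-fold, 1.18 to 1.46). FAU, which encodes a small subunit protein fused to a ubiquitin-like one, had a log2 ratio of 0.0090, and RPL36AL, a paralog of RPL36A, had one of -0.08.

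Other mRNAs with a TOP tract, mostly translation factors, had a median log2 ratio of -0.04 over 22 genes, 6 above 0 and 16 below. None was past the 1.2-fold rule, where 15.9% of all measured genes were higher and 14.6% lower. The lowest of the list were the elongation factor subunit gene EEF1G at -0.25, with 565 and 475 CPM, the cyclin gene CCNG1 at -0.25 and the galectin gene LGALS1 at -0.18. This list lay slightly below and the ribosomal protein genes slightly above the median of all genes, and the difference between the lists was not tested.

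Regulators of TOP mRNAs had a median of 0.07 over 16 genes, 10 above 0 and 6 below. LARP4, an RNA-binding protein gene, was the 1 past the 1.2-fold rule, with 132 parental and 179 resistant CPM (1.36-fold, 1.28 to 1.43). Of all measured genes 15.9% were higher by this rule and 14.6% lower. MTOR, the kinase gene, had 155 and 179 CPM and a log2 ratio of 0.20. TIA1, which encodes a translational repressor of TOP mRNAs, had 110.1 and 96.2 CPM and a log2 ratio of -0.19.

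Chaperones and importers of single ribosomal proteins had a median of 0.09 over 11 genes, 9 above 0 and 2 below. None was past the 1.2-fold rule, where 15.9% of all measured genes were higher and 14.6% lower. RRS1, which helps to load RPL5 and RPL11, had a log2 ratio of 0.22. TSR2, the chaperone of RPS26, had one of -0.17, and BCCIP, which accompanies RPL23, one of 0.17.

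Non-coding TOP hosts of small nucleolar RNAs had the highest median of the lists, 0.21 over 11 genes, with 10 above 0. By the 1.2-fold rule 5 were higher, against 15.9% of all measured genes, and none lower, against 14.6%. EPB41L4A-AS1 stood at 17.9 parental and 31.5 resistant CPM (1.76-fold, 1.53 to 2.03), and SNHG1 at 187 and 301.0 CPM (1.61-fold, 1.54 to 1.68). SNHG12 stood at 10.3 and 13.5 CPM (1.31-fold, 1.08 to 1.60). The hosts among the ribosomal protein genes had the median of 0.03 given above, and the difference between the 2 kinds of host was not tested.

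Mitochondrial ribosomal proteins, which build the separate ribosome of that organelle, had a median of 0.03 over 78 genes, 46 above 0 and 32 below. By the 1.2-fold rule 6 were higher, against 15.9% of all measured genes, and 3 lower, against 14.6%. MRPL10 had 631 parental and 1349 resistant counts (2.31-fold) and was the 1 past the 2-fold rule, where 1.31% of all measured genes were higher. MRPS36 had 271 and 131 counts and MRPL36 had 297 and 474, with log2 ratios of -0.86 and 0.75. Their ratios spanned 0.187 in the middle 50%, against 0.141 for the cytosolic group, whose mRNAs are more abundant.

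**Figure D5:**
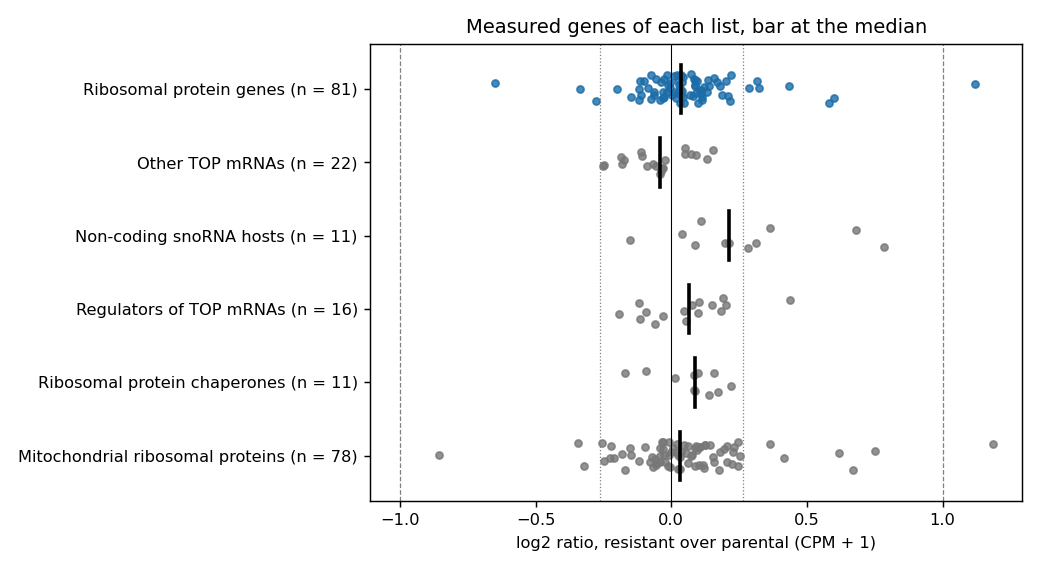
Log2 ratio of resistant over parental CPM plus 1 (x axis) for each measured gene of the ribosomal protein group and of 5 pathway lists (rows, with vertical jitter), with a black bar at each median. Dotted lines mark 1.2-fold and dashed lines 2-fold. The medians run from -0.04 for the other TOP mRNAs to 0.21 for the non-coding hosts of small nucleolar RNAs.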

How the data were processed

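Messenger RNA was sequenced from 1 parental and 1 sorafenib-selected culture labelled HepG2. The authors deposited whole-number counts and FPKM per gene, per the file headers, and a comparison of 1 library with 1 that holds log2 fold changes, p-values and q-values. Not given in the sources used here are their test, counting settings, use of strand and annotation release. The submitters' processing notes name bcl2fastq 2.19, HISAT2 2.0.4, StringTie 1.3.0 and GRCh38.

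CPM was computed in R 4.3.3 with the TMM (trimmed mean of M values) factors of edgeR 4.0.16 (1.003 parental, 0.997 resistant), and no model was fitted. Log2 ratios have 1 CPM added, which understates differences of low genes. Folds have no pseudocount, and their 95% intervals are exact (Clopper-Pearson, conditional on the sum of both counts). Shares have Wilson intervals. PCR copies are not independent molecules, so intervals and floors of 3 counts cover counting error only. The calculation was tested on simulated data.

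Pseudogenes were the rows named by a gene symbol, P and a number, as 1178 rows, of which 375 had a count. Overlaps used whole gene bounds. mRNA lengths and small nucleolar RNAs came from GENCODE 29, in which all 83 genes were found, 68 with identical coordinates. Sequences came from RefSeq (GRCh38.p14).

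The members and lists were chosen with earlier results of these data known. Named genes were the 6 highest and 6 lowest log2 ratios, the 4 highest and 4 lowest parental FPKM, the paralogs with their parent genes, the stalk and 5S genes, RPS6, RPS19, RPS27A, unmeasured members and up to 3 genes with the largest ratios per pathway list. RPS13, FAU, RPL36AL, the genes overlapping a member and single pseudogenes were named after their values were seen. A few genes and 1 list are left out of the report. Alternatives covered scaling, pseudocount, unit, filters, pseudogenes and read-through genes.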

Additional observations from a re-analysis of the deposited data

How the results depend on the processing

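The median log2 ratio stayed above 0 under each of 11 alternatives, at 0.02 to 0.04 over all ribosomal protein genes, 0.03 to 0.06 for the large and 0.01 to 0.03 for the small subunit. DESeq2 size factors, which gave the lowest of these for scaling, moved the median of all genes from -0.0018 to -0.018. The count past the 2-fold rule was 0 in place of 1 with the deposited FPKM, to which 1 FPKM was added. RPS28 had 0.448 parental and 1.26 resistant FPKM, and with the added 1 FPKM its log2 ratio was 0.64. That addition is large against such low values. The count was also 0 with a larger CPM of at least 10 and with pseudogene counts added. It was 0 too with only genes whose pseudogenes hold under 10% of the sum. With only those genes (chosen after seeing the data) 6 were past the 1.2-fold rule in place of 10, and 1 was lower in place of 3. With pseudogene counts added 1 was also lower. The share of all counts was 4.08% (parental) and 4.14% (resistant) with pseudogenes, and 3.19% and 3.23% without mitochondrial genes in the total. RPS2 reversed from a log2 ratio of -0.34 to 0.0029 with pseudogenes added, which hold 75.5% of that sum. Of 279 values tried for 28 named genes, 275 moved by less than the gene's counting error, among them RPS27A, whose sign changed near 0, and the other 4 were RPS2, RPS26, RPS28 and RPLP0 with pseudogenes. No paired analysis was possible because each group has 1 library. With 1 library per group, differences between cultures cannot be told apart from differences between the conditions.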
